A study of Mus musculus with 161 samples.

Results

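A pair of lines of mouse embryonic stem cells (mESCs) that differ by a short stretch of the CTCF N terminus were compared by chromosome-conformation capture carbon copy (5C), which counts ligations between restriction fragments across one chosen region. Line EN298.4 carried the transgene labelled del_13-33-Y226A-F228A, here the combined mutant, which lacks residues 13 to 33 and has the substitutions Y226A and F228A. Line EN297.3 carried Y226A-F228A, here Y226A/F228A, with the same substitutions and an intact stretch 13 to 33. The members are every 5C library of these lines, all treated with auxin and doxycycline for 4 days, 2 libraries each, or 4 of the 91 5C libraries of the series. The comparison asks where in the map of the combined mutant contacts or insulation differ from those of Y226A/F228A.

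All lines are XY and descend from a CTCF-AID E14Tg2a clone, in which endogenous CTCF carries an auxin-inducible degron (AID) and Tir1 is expressed. Auxin (500 µM) degrades endogenous CTCF, and doxycycline (1 µg/ml), through the activator Rtta3G, induces a TetO-driven CTCF cDNA transgene with an mRuby2 tag. The control lines share this system and treatment: Full-length, the complete transgene, Del_13-33 clone 1, here ΔN(13–33), and Del_1-265 clone 1, here ΔN(1–265), each with 2 libraries. These 10 libraries carry consecutive library numbers. The full-length, ΔN(13–33), Y226A/F228A and combined libraries thus cross the deletion with the substitutions. The labels give each line compared as 1 clone, although the study's list of lines gives EN298.4 another clone number and another spelling of the second substitution, and the labels were followed. With 1 clone each, a difference between genotypes and a difference between 2 clones cannot be told apart. The study compared transgene levels between lines by flow cytometry of mRuby2, which was not analysed here, so protein activity and protein amount cannot be told apart in these libraries, and 5C measures no RNA by which the mESC label or the transgene sequence could be checked. The labels do not say whether the 2 libraries of a line came from separate cultures, so p-values measure only the spread between libraries.

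CTCF binds DNA with a polar motif and halts cohesin, the ring complex that extrudes chromatin loops, and halted cohesin leaves topologically associating domains (TADs) that contact their neighbours less. The tyrosine and phenylalanine replaced by Y226A and F228A lie in a motif that docks onto the cohesin subunits RAD21 and SA2. The stretch of residues 13 to 33 holds another short motif, of a kind shared with the cohesin regulators WAPL and SORORIN, which bind the cohesin partner PDS5A.

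The assay covered mm9 chrX:98831148-103425147, the X-inactivation centre with Xist, the noncoding RNA that coats the inactive X chromosome, and its antisense partner Tsix. Boundaries 1 to 6 of the study's insulation score cut this region into 7 segments, and the FLAG-CTCF peaks of full-length cells, 78 in the region and 200 bases each, mark where transgenic CTCF was bound after 2 days of treatment. The letters CCANNAGNNGGC, searched on both strands, were found in 31 of the 78 peaks (39.7%), against 1.39% of 22969 windows of equal length in the region. Shown first is 1 peak with a match from each boundary bin that has one, because insulation is compared at these places. Positions are in mm9, on the plus strand, with the motif in capitals. The bins of boundaries 2, 4 and 6 hold 3 peaks each, and their other peaks, with and without a match, are not printed. Boundary 5 had no peak in its bin or the bins beside it. Of the boundary-bin peaks with a match, all had it on the plus strand.
Boundary 1, chrX:99170321-99170520, Nhsl2 intron: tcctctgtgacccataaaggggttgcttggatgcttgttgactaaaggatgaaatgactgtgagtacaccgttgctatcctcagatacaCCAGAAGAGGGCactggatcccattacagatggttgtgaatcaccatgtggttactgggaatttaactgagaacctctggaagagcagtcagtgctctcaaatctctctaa
Boundary 2, chrX:99414572-99414771, intergenic: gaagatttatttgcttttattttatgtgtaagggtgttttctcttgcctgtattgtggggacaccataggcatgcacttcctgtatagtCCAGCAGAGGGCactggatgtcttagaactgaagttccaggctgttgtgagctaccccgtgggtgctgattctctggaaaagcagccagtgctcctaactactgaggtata
Boundary 3, chrX:100455304-100455503, 4930519F16Rik intron: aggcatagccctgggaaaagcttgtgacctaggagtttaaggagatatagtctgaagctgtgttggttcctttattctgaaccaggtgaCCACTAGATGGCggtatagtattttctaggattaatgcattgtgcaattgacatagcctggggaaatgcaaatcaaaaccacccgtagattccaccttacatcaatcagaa
Boundary 4, chrX:100676984-100677183, Tsix exon and Xist exon: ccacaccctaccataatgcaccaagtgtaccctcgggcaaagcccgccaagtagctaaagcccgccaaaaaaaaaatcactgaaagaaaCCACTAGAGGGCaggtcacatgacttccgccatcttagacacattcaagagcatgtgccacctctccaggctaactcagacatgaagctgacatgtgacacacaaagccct
Boundary 6, chrX:103221845-103222044, intergenic: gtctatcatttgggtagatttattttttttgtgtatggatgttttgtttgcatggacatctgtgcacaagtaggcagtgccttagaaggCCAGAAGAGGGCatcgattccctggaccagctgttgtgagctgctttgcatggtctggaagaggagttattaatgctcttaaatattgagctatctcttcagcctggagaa

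The next 3 peaks lie in bins where insulation passed the test further on, within Tsix and Atrx where it rose and within Hdac8 where it fell. They are examples only. Most bins that passed hold no peak, and 54 of all 230 bins of the region hold one. The bin with the largest rise, upstream of boundary 4, holds 2 peaks, both without a match. The match (as its reverse complement on the printed strand for the minus matches) is again in capitals. A match is only a run of letters in these windows.
Tsix intron, chrX:100649485-100649684, match on minus: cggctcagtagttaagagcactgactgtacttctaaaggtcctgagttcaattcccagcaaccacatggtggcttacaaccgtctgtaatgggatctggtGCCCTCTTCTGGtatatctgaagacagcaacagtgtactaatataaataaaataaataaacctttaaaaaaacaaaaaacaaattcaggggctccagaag
Atrx intron, chrX:103116871-103117070, match on plus: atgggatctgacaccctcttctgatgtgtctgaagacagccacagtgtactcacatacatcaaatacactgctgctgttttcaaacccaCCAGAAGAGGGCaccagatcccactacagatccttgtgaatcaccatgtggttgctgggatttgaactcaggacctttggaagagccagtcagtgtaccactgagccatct
Hdac8 intron, chrX:99672225-99672424, match on minus: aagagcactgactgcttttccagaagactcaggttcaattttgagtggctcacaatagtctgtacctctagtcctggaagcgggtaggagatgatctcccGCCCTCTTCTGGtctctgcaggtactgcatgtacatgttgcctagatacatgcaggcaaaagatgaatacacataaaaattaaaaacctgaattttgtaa

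The Y226A/F228A libraries held 20186662 and 21902736 counts and the combined libraries 19527039 and 20052701. The 10 libraries ranged from 4509541 to 23096139 counts. Combined replicate 2 stood apart from the others at similar depth, with 21.6% of primer pairs at 0 counts, against 53.3% in combined replicate 1 and 49.1% and 51.4% in the Y226A/F228A libraries. The other 6 libraries lay between 28.8% and 60.8%. Its part in the results was not tested beyond leaving it out, so results that rest on it are given with and without it. In each group the 2 libraries differed by more than sampling noise (chi-square per degree of freedom 11.3 to 26.4), so none was counted as a duplicate.

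Insulation was higher in the combined mutant than in Y226A/F228A and remained below full-length CTCF in point value. The insulation score of a 20-kb bin uses the mean corrected signal between the 100 kb on either side of it. The score is minus the log2 of that signal relative to the mean over all scored bins of the same library. A higher score thus means fewer contacts across the bin relative to that mean, and not necessarily a lower signal. Averaged over the 6 boundaries, the score was 0.388 and 0.366 in the Y226A/F228A libraries (0.377 ± 0.016, SD, n = 2) and 0.450 and 0.467 in the combined libraries (0.458 ± 0.012, SD, n = 2). Both combined libraries lay above both Y226A/F228A libraries. The difference was 0.081, and 0.073 without combined replicate 2. The two-sided exact permutation test gave p = 0.333, the smallest p that 2 against 2 allows, so this design cannot pass a threshold of 0.05.

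The controls place these values on a scale. Full-length libraries of the run scored 0.588 and 0.571 (0.580 ± 0.012, SD, n = 2), and the 14 full-length libraries of the series 0.607 ± 0.040 (SD), from 0.542 to 0.708. Without doxycycline, 2 auxin-treated libraries of the full-length line scored 0.373 and 0.384, and these libraries carry numbers outside the consecutive run. The Y226A/F228A mean was 0.001 below and the combined mean 0.080 above the mean of those libraries. The step from Y226A/F228A to the combined mutant was 40.1% of the gap to the 2 full-length libraries of the run and 35.3% of the gap to all 14. These shares include boundary 4, where the step was largest (0.15) and Y226A/F228A was 0.03 above full-length. At boundaries 2, 3, 5 and 6 the steps were 0.11, 0.08, 0.05 and 0.06. Y226A/F228A minus full-length was -0.31, -0.38, -0.32 and -0.19 there. At boundary 1 the step was 0.05, and Y226A/F228A minus full-length was -0.04. ΔN(13–33) scored 0.574 and 0.539, so with otherwise full-length CTCF the deletion mean was 0.023 lower, and the difference of the 2 deletion effects was 0.104. ΔN(1–265) scored 0.462 and 0.489, a range that overlaps the combined mutant. All 10 Del_1-265 libraries of the series, of clone 1 and a second clone, scored from 0.462 to 0.517. Both Y226A/F228A libraries thus lay below every library that lacks the whole N terminus, and the cause was not tested.

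**Figure D1:**
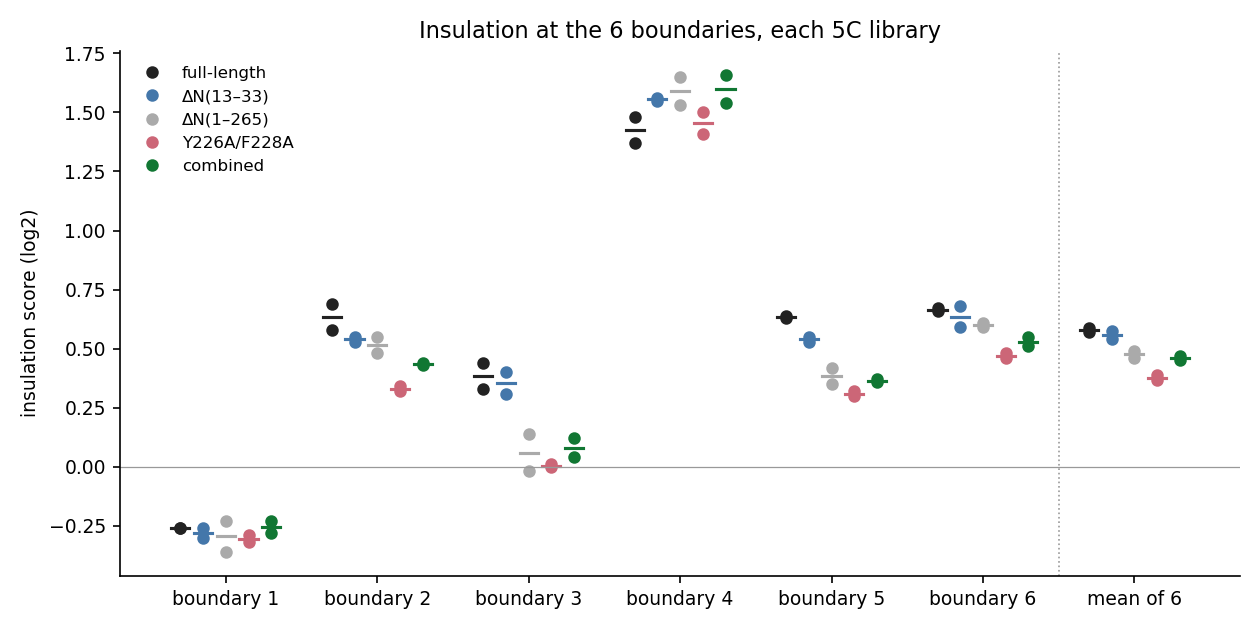
Insulation score (log2, y axis) of each 5C library (points) at the 6 boundaries and their mean, with the mean of the 2 libraries of a group as a bar. Both combined libraries (green) lie above both Y226A/F228A libraries (red) at every boundary, by 0.05 to 0.15 between means.

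At each single boundary the direction was the same. Both combined libraries scored above both Y226A/F228A libraries at 6 of 6 boundaries, where 25.4% of all 193 scored bins were higher without overlap and 27.5% lower. Boundary 2, between Rps4x and Cited1, scored 0.34 and 0.32 in Y226A/F228A and 0.43 and 0.44 in the combined mutant, beside 0.58 and 0.69 with full-length CTCF. Boundary 4, at the start of Xist, was the strongest boundary in all 5 groups and scored 1.50 and 1.41 in Y226A/F228A and 1.54 and 1.66 in the combined mutant. Full-length scored 1.48 and 1.37 there, so the combined libraries lay above full-length rather than between. ΔN(13–33) (1.55 and 1.56) and ΔN(1–265) (1.53 and 1.65) lay above full-length at this boundary too. Boundary 3, inside the gene 4930519F16Rik, was near 0 in Y226A/F228A (-0.00 and 0.01) and 0.04 and 0.12 in the combined mutant, against 0.44 and 0.33 with full-length CTCF.

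Boundaries 5 and 6 showed smaller steps. Boundary 5, between Rlim and C77370, went from 0.30 and 0.32 to 0.37 and 0.36, with full-length at 0.64 and 0.63. Boundary 6, near the start of Atp7a, which encodes a copper transporter, went from 0.48 and 0.46 to 0.55 and 0.51, with full-length at 0.66 and 0.67. Boundary 1, inside Nhsl2, was less insulated than the average bin in all groups and went from -0.29 and -0.32 to -0.23 and -0.28. In the limma fit over 193 bins none of the 6 boundary bins passed for combined against Y226A/F228A (Benjamini-Hochberg adjusted p from 0.157 to 0.49), and each exact permutation p was 0.333, before and after adjustment over the 6. The limma intervals of the difference were widest at boundary 4 (0.02 to 0.28) and boundary 3 (-0.05 to 0.20). Against full-length, limma called boundaries 2, 3, 5 and 6 lower in Y226A/F228A (by -0.31, -0.38, -0.32 and -0.19, where 18.7% of bins were called lower) and in the combined mutant (by -0.20, -0.30, -0.27 and -0.13, where 10.4% were). These contrasts share libraries with each other and are given side by side only.

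Along the whole profile, insulation rose in 12 bins and fell in 6 of 193 in the combined mutant (limma adjusted p below 0.05, 9.33% of bins in either direction, 6.22% higher and 3.11% lower). The rises lay around Tsix and Xist, upstream of boundary 3, in C77370 beyond boundary 5, in Atrx before boundary 6 and at chrX:102331148-102351147. Apart from bins named by the ranking rule, the called bins described here were picked after their values were seen. Of the 12, 8 lay within 100 kb of a boundary, as did 65 of all 193. The bins of a run share contacts and are not independent.

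The largest rise was in the bin upstream of boundary 4, chrX:100651148-100671147, which holds parts of Xist and Tsix. It scored 1.52 and 1.55 in Y226A/F228A and 1.86 and 1.85 in the combined mutant, with full-length at 1.64 and 1.61 and ΔN(13–33) at 1.79 and 1.80. The difference was 0.31 (95% limma interval 0.19 to 0.44, adjusted p = 0.0109), and the combined libraries were above both full-length libraries. The next bin upstream, inside Tsix and with the minus-strand peak printed above, went from 1.18 and 1.21 to 1.42 and 1.42, the level of full-length (1.42 and 1.41). Its difference was 0.22 (adjusted p = 0.0243). ΔN(13–33) scored 1.61 and 1.60 in this bin, so the score was also higher with the deletion in otherwise full-length CTCF. The difference of the 2 deletion effects was 0.03 there (limma adjusted p = 0.814).

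The bins just upstream of boundary 3, in 4930519F16Rik, rose in a row of 3, chrX:100391148-100451147. The one that touches the boundary bin went from -0.22 and -0.12 to 0.05 and 0.00, against 0.27 and 0.27 with full-length CTCF (difference 0.19, limma adjusted p = 0.034). In C77370 the bin with the largest rise at least 100 kb from any boundary bin, chrX:101331148-101351147, went from 0.33 and 0.43 to 0.58 and 0.55, above full-length at 0.48 and 0.51 (difference 0.19, limma adjusted p = 0.0405). In Atrx, which encodes a chromatin remodeller, 3 bins in a row rose by 0.14, 0.17 and 0.17. The last of them, with the plus-strand peak printed above, had the lowest adjusted p of the profile (limma, 0.00992), at -0.30 and -0.30 in Y226A/F228A, -0.12 and -0.14 in the combined mutant and -0.09 and -0.10 with full-length.

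The falls were led by Hdac8, the gene of a deacetylase that acts on the cohesin subunit SMC3. In the 3 bins chrX:99631148-99691147 the differences were -0.21, -0.28 and -0.21 (limma adjusted p = 0.0193, 0.0193 and 0.0487). The middle bin scored 0.47 and 0.65 in Y226A/F228A and 0.23 and 0.33 in the combined mutant, with full-length between at 0.41 and 0.43. Single bins also fell in 4930519F16Rik beyond boundary 3 (by -0.11), at Rlim, the gene of a ubiquitin ligase (by -0.14), and at the 3' end of Atrx (by -0.17, from 0.65 and 0.60 to 0.45 and 0.46). Full-length scored 0.63 and 0.61 at this last bin, so there the combined mutant was farther from full-length than Y226A/F228A. The ranking rule also named 2 bins with higher values, by 0.11 and 0.10, at chrX:101871148-101891147 and chrX:100851148-100871147, and 3 with differences of -0.18, -0.11 and -0.09, none of which passed limma (adjusted p from 0.119 to 0.344).

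The number of bins called rested on single libraries. It was 0 without Y226A/F228A replicate 2 or without combined replicate 1, 3 without Y226A/F228A replicate 1, 4 without combined replicate 2, and 7 without either library of full-length or of ΔN(13–33). Without combined replicate 2 the Xist and Tsix bin still differed by 0.32 (limma adjusted p = 0.0602).

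**Figure D2:**
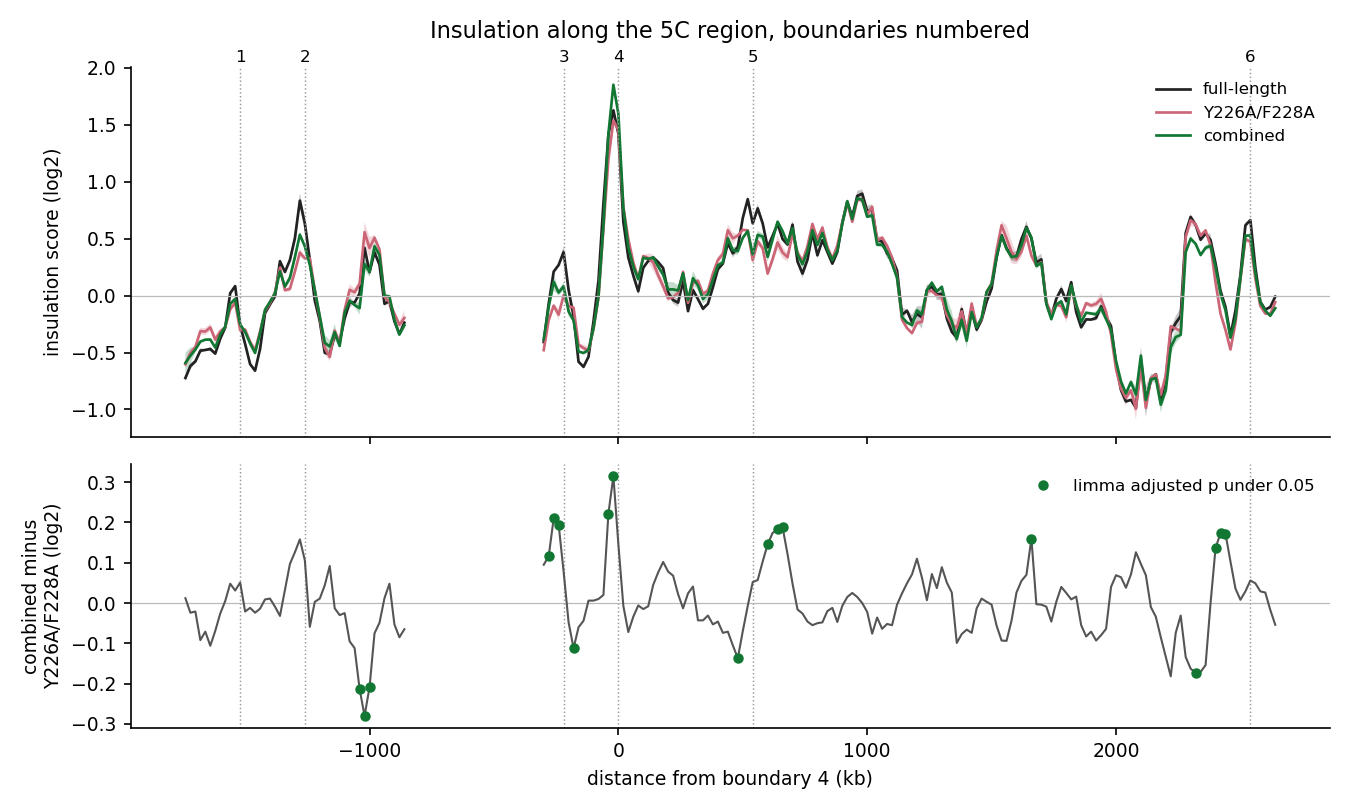
Insulation score (log2) along the region, as distance in kb from boundary 4, for the means of 2 libraries of full-length, Y226A/F228A and combined, with bands from the lower to the higher library, and below it the difference combined minus Y226A/F228A. Green points mark the 18 bins with limma adjusted p below 0.05, and the line is broken where bins were not scored.

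Contacts between 400 and 2000 kb fell in the combined mutant, and contacts between 40 and 100 kb were higher in point value. The corrected signal is the authors' iteratively corrected count, in maps scaled to a sum of 1000000, here averaged over classes of bin pairs that overlap each other. Between 400 and 1000 kb its mean was 1.47 and 1.49 in Y226A/F228A and 1.32 and 1.32 in the combined mutant, so that it fell by 10.6% (log2 difference -0.16, 95% interval -0.21 to -0.11, limma adjusted p = 0.00239). Full-length (1.39 and 1.41) and ΔN(13–33) (1.35 and 1.36) lay between. Combined minus full-length was -0.09 (limma adjusted p = 0.0289) and Y226A/F228A minus full-length 0.07 (limma adjusted p = 0.0305), so the combined mutant was called below full-length. Between 1000 and 2000 kb the signal fell from 0.5 and 0.51 to 0.461 and 0.428 (log2 -0.19, limma adjusted p = 0.03), and without combined replicate 2 the difference was -0.13 (adjusted p = 0.148). Beyond 2000 kb it was 0.206 and 0.213 against 0.208 and 0.17, which overlapped (log2 -0.16, interval -0.42 to 0.11, limma adjusted p = 0.287). Between 40 and 100 kb it was 12.4 and 12.5 against 12.8 and 13.0, higher without overlap but not called (log2 0.05, interval 0.00 to 0.09, limma adjusted p = 0.0999). Since each map has the same sum, a lower signal in one distance range goes with a higher one elsewhere.

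**Figure D3:**
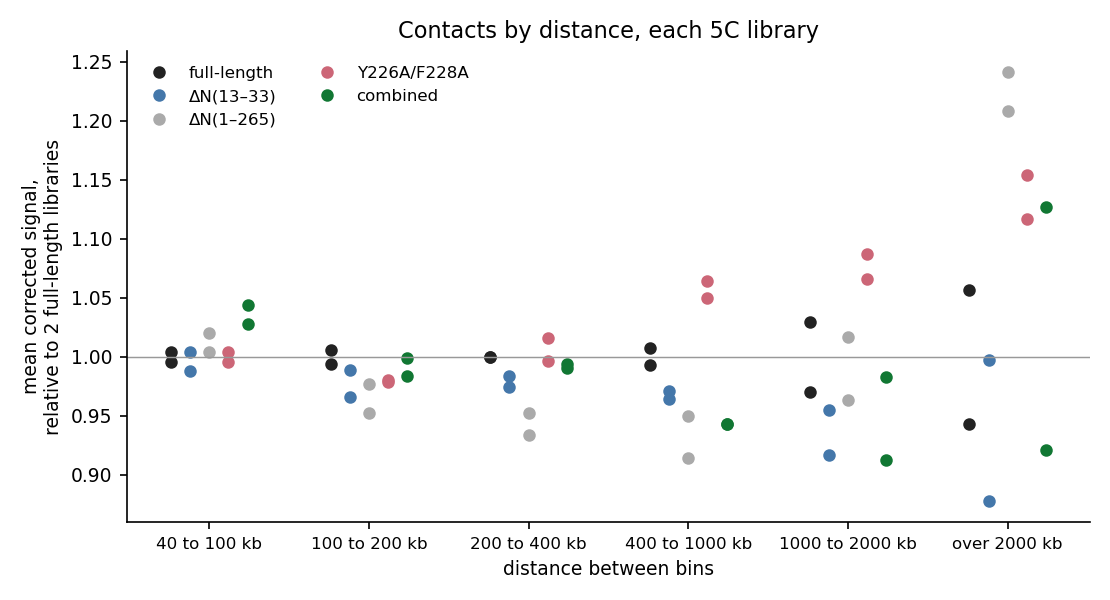
Mean corrected signal of each library (points) in 6 ranges of distance between bins, as a ratio to the average of both full-length libraries of the run (y axis). From 400 to 1000 kb both combined libraries lie below all other libraries except 1 library of ΔN(1–265), and beyond 2000 kb they overlap Y226A/F228A.

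Across segments the same split was seen. Of 55 classes, 17 were called lower and 0 higher in the combined mutant (30.9%), and 9 were higher without overlap (16.4%) and 37 lower (67.3%). All 21 pairs of different segments were lower in point value, with 7 called, while within segments 6 of 7 were higher without overlap and 0 of 7 were called. Contacts between segment 5, from Xist to Rlim, and segment 6, from C77370 to Cox7b, fell from 0.918 and 0.930 to 0.796 and 0.758 (log2 -0.25, interval -0.35 to -0.15, limma adjusted p = 0.00583). Full-length was lower still at 0.708 and 0.736. The other called pairs were segments 1 and 3 (-0.29), 1 and 4 (-0.39), 2 and 3 (-0.16), 2 and 4 (-0.28), 3 and 4 (-0.17) and 6 and 7 (-0.11). In the same order, combined minus full-length was 0.06, -0.03, -0.00, -0.28, -0.00 and -0.20. It was called for segments 2 and 4 and for 6 and 7 (limma adjusted p = 0.011 and 0.00172). Y226A/F228A minus full-length was -0.00 and -0.08 in those, so the combined mutant was farther from full-length there.

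Contacts in squares of 400 kb across boundaries 1, 2, 5 and 6 fell. The 400-kb squares of boundaries 1 and 2 each also cross the other of these boundaries. Classes that cross boundary 1 but not boundary 2 were not called. Segments 1 and 2 differed by -0.07 (limma adjusted p = 0.126). The 200-kb and 100-kb squares of boundary 1 differed by -0.06 and -0.02 (limma adjusted p = 0.202 and 0.673). In the 400-kb square across boundary 2 the mean signal was 2.44 and 2.39 in Y226A/F228A and 2.09 and 2.07 in the combined mutant, beside 2.07 and 2.03 with full-length CTCF. The signal fell by 14% (log2 -0.22, interval -0.27 to -0.17, limma adjusted p = 0.00046). In the 400-kb square across boundary 5 the signal fell from 2.33 and 2.35 to 2.06 and 2.05, with full-length at 1.79 and 1.76 (log2 -0.19, interval -0.23 to -0.14, limma adjusted p = 0.00046). Against full-length the combined mutant was still higher by 0.21 at boundary 5 (limma adjusted p = 0.000473), and at boundary 2 by 0.02 (adjusted p = 0.594). The 400-kb squares of boundaries 1 and 6 (-0.10 and -0.09) and the 200-kb squares of boundaries 2 and 5 (-0.12 and -0.11) were also called. In the same order, combined minus full-length was 0.03, -0.08, 0.12 and 0.26. In the 400-kb square of boundary 6 the combined mutant was thus below full-length (limma adjusted p = 0.0437), where Y226A/F228A minus full-length was 0.01.

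No square of 100 kb was called on this scale, and none at boundaries 3 and 4. All 6 squares of 100 kb were lower in point value and 4 without overlap, while those of boundaries 1 and 6 overlapped. The 400-kb square across boundary 3 held 3.89 and 3.76 in Y226A/F228A, 3.78 and 3.78 in the combined mutant and 3.25 and 3.34 in full-length (interval of the log2 difference -0.12 to 0.09). Without combined replicate 2, 9 of the 55 classes were called, the 400-kb squares of boundaries 2 (-0.21) and 5 (-0.18) among them. The count was 7 without Y226A/F228A replicate 1 and 9 without replicate 2.

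Divided by the mean signal at the same distance in the same library, contacts moved in both directions. Of 48 classes, 3 were called higher (6.25%) and 11 lower (22.9%), 29.2% in all. Without overlap 25% were higher and 47.9% lower. Within segment 3, which holds Hdac8 and Nap1l2, the ratio rose from 1.17 and 1.19 to 1.28 and 1.24, with full-length at 1.33 and 1.31 (log2 0.10, limma adjusted p = 0.0238). Segments 3 and 5 rose from 1.14 and 1.08 to 1.19 and 1.25 (log2 0.14, limma adjusted p = 0.0272). The 400-kb square across boundary 4 rose from 0.568 and 0.577 to 0.641 and 0.623, beyond full-length at 0.59 and 0.6 (log2 0.14, limma adjusted p = 0.0238). That square also crosses boundary 3 and takes in pairs of segments 3 and 5. Segments 4 and 5 differed by 0.04, and the 200-kb and 100-kb squares of boundary 4 by -0.01 and -0.14, none of them called. The insulation score at boundary 4, taken over 100 kb, was higher in point value. All 3 squares of boundary 2 (-0.14, -0.16 and -0.17) and the 200-kb and 400-kb squares of boundary 5 (-0.14 and -0.15) fell on this scale too. The other classes called lower were segments 1 and 3 (-0.16), 1 and 4 (-0.20), 2 and 3 (-0.08), 3 and 4 (-0.10) and 5 and 6 (-0.12) and the 400-kb square of boundary 1 (-0.07). On this scale, 12 of 20 segment pairs were lower in point value, against 21 of 21 for the signal. Without combined replicate 2, 11 of 48 were called, and the count was 2 without Y226A/F228A replicate 2 or combined replicate 1, and 9 without Y226A/F228A replicate 1.

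**Figure D4:**
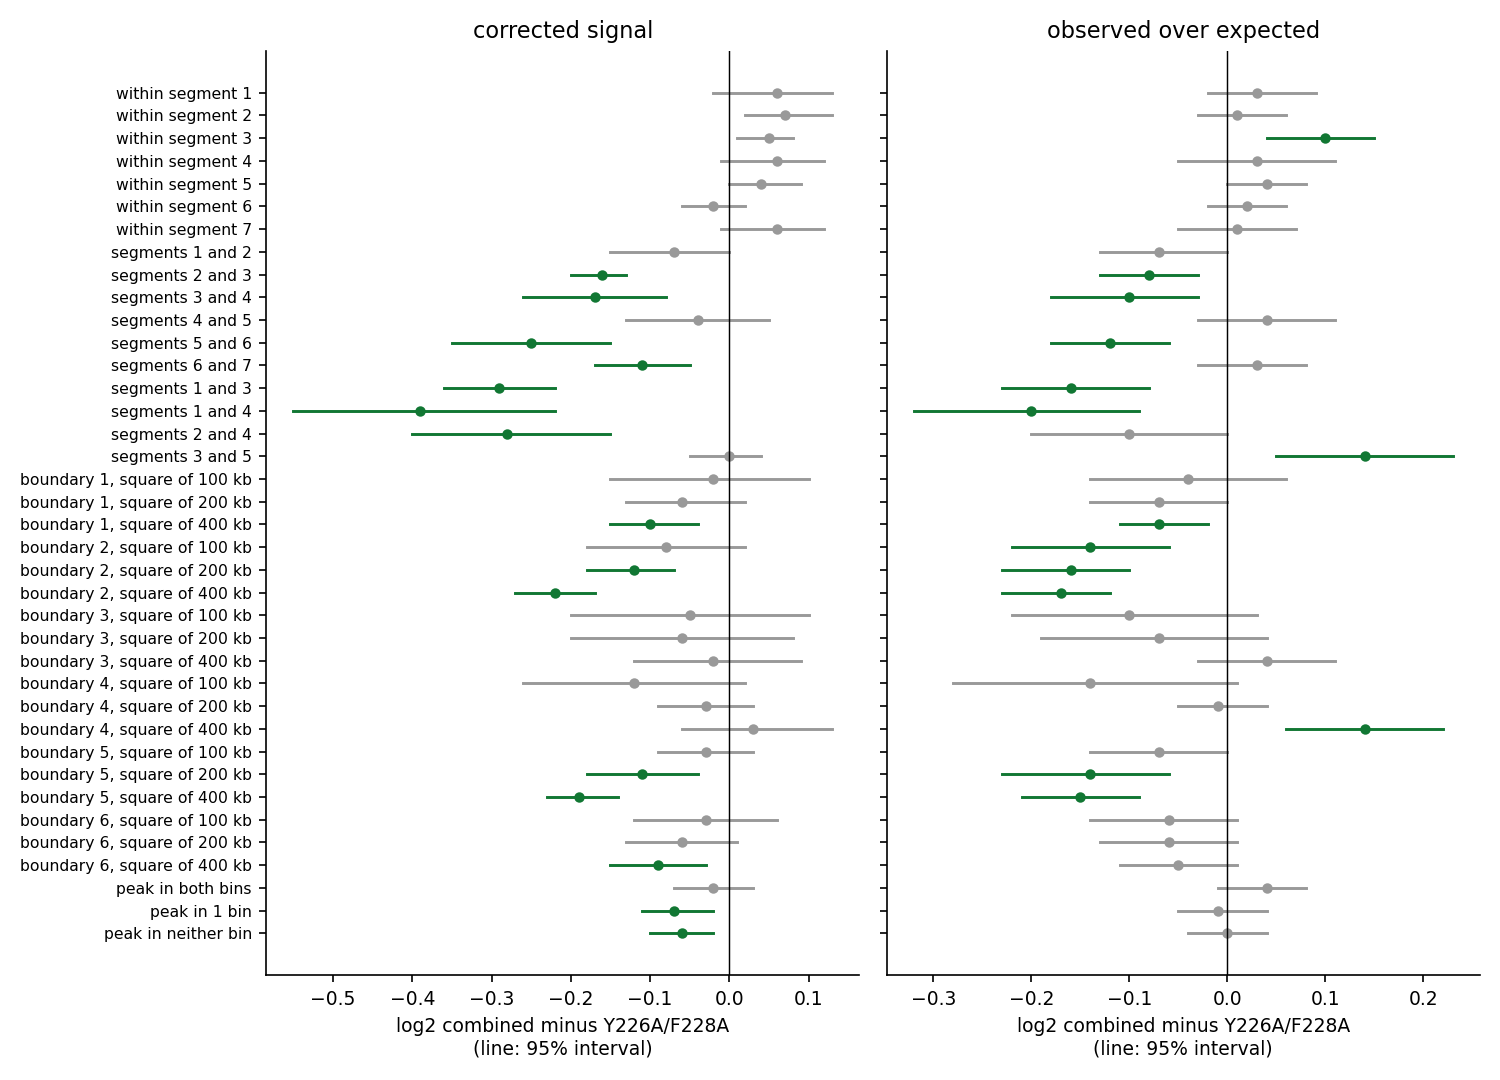
Log2 difference, combined minus Y226A/F228A, of the mean corrected signal (left) and of observed over expected (right) for classes of bin pairs, with 95% limma intervals as lines. Green marks limma adjusted p below 0.05, and in the left panel every green class, the 400-kb squares of boundaries 2 and 5 among them, lies below 0.

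**Figure D5:**
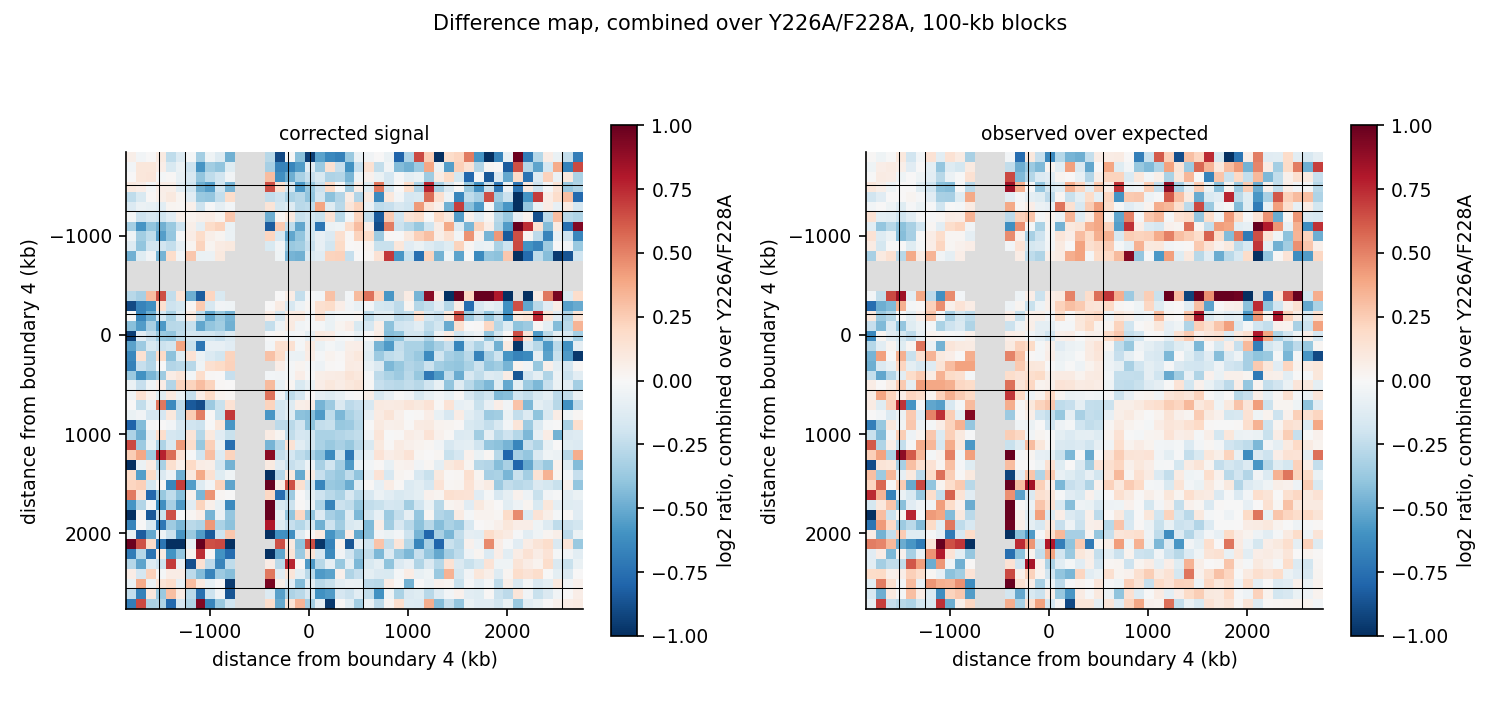
Log2 ratio of combined over Y226A/F228A in 100-kb blocks, as distance in kb from boundary 4 on both axes, for the corrected signal (left) and observed over expected (right), with boundaries as black lines and unmeasured blocks in grey. Blue blocks, lower in the combined mutant, fill the rectangles between segments 5 and 6 on the left panel, and sparse blocks far from the diagonal scatter in both directions.

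No single bin pair passed the test. Of 20816 measured bin pairs, 14361 had a signal in all 10 libraries, and 0 were called by limma (0% in either direction, lowest adjusted p = 0.765) or by edgeR on the raw counts. At an unadjusted p below 0.05, limma gave 314 higher and 599 lower (6.36%) and edgeR 515 and 390, so that the tools leaned in opposite directions. Without overlap, 1942 were higher (13.5%) and 3366 lower (23.4%). At 40 to 100 kb 29.9% were higher and 11.3% lower, and at 400 to 1000 kb 9.73% were higher and 29.4% lower. The median log2 difference of all pairs was -0.075. The largest positive difference named by the ranking rule, 2.27 on the log2(signal + 0.1) scale, joined chrX:98891148-98911147 in segment 1 with a bin of Rlim, with a signal of 0.0269 and 0.125 in Y226A/F228A and 0.734 and 0.701 in the combined mutant, and full-length at 0.753 and 0.258. A further 3 positive differences were 2.13, 2.01 and 1.99, and the 5 negative ones ran from -2.14 to -2.49, all with limma adjusted p from 0.765 to 0.778.

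Over all pairs of CTCF peaks the lines overlapped, and on the ratio scale none of the peak classes was called. Over 316 of 344 bin pairs with a peak in both bins, 100 to 1000 kb apart, the mean log2 observed over expected was 0.030 and 0.036 in Y226A/F228A and 0.032 and 0.122 in the combined mutant, beside 0.084 and 0.086 with full-length CTCF. Combined replicate 2 was higher and replicate 1 lay between the Y226A/F228A libraries. The difference was 0.044 (two-sided exact permutation p = 0.667) and -0.001 without combined replicate 2, so it rested on that library. Of pairs whose motif strands were known, the 20 convergent pairs held 0.144 and 0.018 against 0.122 and 0.128, the 35 tandem pairs -0.091 and -0.022 against 0.011 and -0.014, and the 14 divergent pairs 0.195 and -0.073 against 0.234 and 0.276. The tandem and divergent sets were higher in the combined mutant without overlap and the convergent set overlapped, and these sets were not tested singly. As a class, observed over expected of pairs with a peak in both bins was 1.19 and 1.19 against 1.21 and 1.23, higher without overlap but not called (log2 0.04, interval -0.01 to 0.08, limma adjusted p = 0.158). The signal of these pairs differed by -0.02 (interval -0.07 to 0.03), and with a peak in 1 bin (-0.07) or in neither (-0.06) it fell (limma adjusted p = 0.03 for both).

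The effect of the deletion differed with and without the substitutions in a few places. The interaction, the difference of the deletion effect with Y226A/F228A and its effect with full-length CTCF, was called by limma at 4 of 193 bins (2.07%), 3 of 55 classes of signal (5.45%), 15 of 48 classes of observed over expected (31.2%) and 0 of 14361 bin pairs, where 266 were higher and 319 lower at an unadjusted p below 0.05 (edgeR 0, with 247 and 263). In Hdac8, at chrX:99671148-99691147, the score was 0.17 and 0.24 with full-length CTCF and 0.39 and 0.36 with ΔN(13–33), but 0.32 and 0.51 with Y226A/F228A and 0.16 and 0.25 with the combined mutant. In the 400-kb squares the deletion effect with full-length CTCF was -0.06 at boundary 2 and -0.01 at boundary 5, against -0.22 and -0.19 with Y226A/F228A. At the 6 boundary bins no interaction was called (adjusted p from 0.0973 to 0.919). Leaving out combined replicate 1, combined replicate 2 or Y226A/F228A replicate 2 left 0 bins and 0 classes of signal. Leaving out any library of full-length or ΔN(13–33) also left 0 bins, and full-length replicate 13 also 0 classes of signal. For observed over expected, 0 classes were left without full-length replicate 13, ΔN(13–33) replicate 5, Y226A/F228A replicate 2 or combined replicate 1, 3 without ΔN(13–33) replicate 6, 8 without combined replicate 2 and 9 without Y226A/F228A replicate 1. Raw counts gave 0 in both sets of classes.

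Bin pairs that differ when the whole N terminus is missing were described as 2 lists, one higher and one lower in full-length. They were made from 12 full-length libraries and 8 Del_1-265 libraries, of clone 1 and of a second clone, whose numbers lie outside the consecutive run. Of 641 bin pairs called higher in full-length there (limma adjusted p below 0.05), 632 were among the pairs tested here, as were 198 of those called lower. The list higher in full-length had a median of -0.241 for Y226A/F228A minus full-length and -0.059 for combined minus Y226A/F228A, where all bin pairs had -0.075. In point value 44.3% of its members were higher in the combined mutant, against 42.7% of all, and 0 were called. The list lower in full-length had a median of 0.392 for Y226A/F228A minus full-length and -0.147 for combined minus Y226A/F228A, with 33.3% higher. The 2 contrasts share the Y226A/F228A libraries.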

How the data were processed

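5C was measured in all lines with HindIII ligation, and the authors mapped reads to primer pairs in mm9 (the submitters' processing notes name Bowtie2 and SAMtools). The authors deposited raw read counts per primer pair, and a corrected signal made from them by iterative correction of the fragment-level matrix (cooltools), scaled to a sum of 1000000, with poorly covered primers left out. The coordinates of FLAG-CTCF peaks were also deposited, those found in both libraries of full-length cells.

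Here, corrected signals of 455 forward and 467 reverse primers were averaged in 20-kb bins, the 2 diagonals nearest the centre were set to the mean of the outer one, and insulation used a 100-kb window at the boundary positions of the study. Insulation, bin pairs (at least 40 kb apart, signal above 0 in all 10 libraries, log2(signal + 0.1)) and classes were fitted with limma 3.58.1 over the 10 consecutively numbered libraries of 5 groups, so groups shared 1 estimate of spread (5 residual degrees of freedom), with Benjamini-Hochberg adjustment. The library numbers are labels and no batch is stated. Raw counts were tested with edgeR 4.0.16. Means over boundaries and peak pairs were tested by two-sided exact permutation. A GTF of mm9 gave genes, and 922 of 922 fragments began at a HindIII site in the mm9 sequence. Scripts were tested on simulated data.

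Named are the 6 boundary bins, the 5 bins that rose and the 5 that fell most without overlap (at least 100 kb from a bin already named, boundary bins included), the 5 bin pairs in each direction likewise (3 bins apart), and every class called. One of these bin pairs is not reported here. The members, lists and tests were chosen with earlier results of these data known. Alternatives were other windows, bins, pseudocounts and filters, raw counts, fewer groups, a replicate block and leaving out each library. 5C reads carry no molecular identifiers, and depth is given as total counts. Hi-C and ChIP-seq signal of the series were not used here.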

Additional observations from a re-analysis of the deposited data

Results flagged for a closer look

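All values here are interactions: the effect of the deletion with Y226A/F228A (combined minus Y226A/F228A) minus its effect with full-length CTCF (ΔN(13–33) minus full-length), each past limma's adjusted p of 0.05. For insulation, the bin in Hdac8 at chrX:99671148-99691147 had -0.38, the bin in Zdhhc15 at chrX:101831148-101851147 had 0.23, and the neighbouring bins in Atrx at chrX:103091148-103131147 had 0.21 and 0.23. In Zdhhc15 full-length scored -0.12 and -0.14 and the other 3 genotypes of the design lay between -0.32 and -0.23.

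For the corrected signal, the interaction was -0.16 for segments 2 and 3, -0.16 for the 400-kb square of boundary 2 and -0.18 for that of boundary 5. For observed over expected it was negative for segments 1 and 4 (-0.35), 2 and 4 (-0.19), 3 and 4 (-0.19) and 5 and 6 (-0.18), and positive for segments 2 and 5 (0.14), 3 and 5 (0.17) and 4 and 5 (0.17). The squares of 100, 200 and 400 kb gave -0.22, -0.14 and -0.13 at boundary 2 and -0.15, -0.17 and -0.17 at boundary 5, and those of 200 and 400 kb gave 0.10 and 0.20 at boundary 4. These classes share bin pairs, and none of the interactions in this part was called without combined replicate 1 or without Y226A/F228A replicate 2.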

How the results depend on the processing

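The higher mean insulation of the combined mutant kept its direction in every alternative run (0.049 to 0.129, with raw counts lowest, and 0.070 to 0.093 without 1 library). At single boundaries 58 of 60 alternative values kept direction, and those that reversed were boundary 1 with raw counts (-0.10) and boundary 5 scored at the bin directly upstream (-0.01). With raw counts 3 of 6 boundaries were higher without overlap. All class differences called kept their direction in each alternative, with 53 alternative values for the signal and 64 for observed over expected no longer called.

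Without 1 library, called bins numbered 0 to 24 and interactions 0 to 10 (10 without either library of ΔN(1–265)), bin pairs 0 to 3 (3 without Y226A/F228A replicate 1, 1 without replicate 2) and interactions 0 to 2, signal classes 7 to 18 and interactions 0 to 7, observed-over-expected classes 2 to 17 and interactions 0 to 17, and the peak-pair difference -0.001 to 0.089. A lone library of a group adds nothing to the estimate of spread. With the 200-kb window 61 of 178 bins and 32 interactions were called. Median bins gave 1 bin pair and 1 interaction of 6160. Fitting only the 4 libraries gave 10 signal classes and 8 for observed over expected, and 26 bins. The 8 libraries without ΔN(1–265) gave interactions at 10 bins and 7 signal classes. Raw counts gave 7 observed-over-expected classes and 0 interactions for both class sets. The N-terminus list lower in full-length had a median of -0.104 at a list threshold of 0.01. The cause of these changes was not tested.

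The replicate numbers pair nothing that the labels name, and deviations of equal-numbered libraries correlated at -0.009 to 0.015. With a replicate block, 6 bins, 0 bin pairs, 10 signal classes and 8 observed-over-expected classes were called, and interactions at 0 bins, 0 bin pairs, 0 signal classes and 3 observed-over-expected classes. Means over boundaries and peak pairs stayed 0.081 and 0.044 (exact paired permutation p = 0.5 for both). Of 20816 measured bin pairs, 14361 had a signal in all 10 libraries, and the part of depth in the lack of single-pair calls was not tested.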
